A study of Mus musculus with 6 samples.

Results

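The 10 genes described here make the machinery that cuts, exports, loads and applies microRNAs: Drosha, Dgcr8, Xpo5, Dicer1, Tarbp2, Ago1, Ago2, Ago3, Ago4 and Tnrc6a. They were chosen by symbol, with earlier results of these data known, and all 10 were found among the 20199 genes of the deposited count table. They were measured by bulk RNA sequencing of aortic smooth muscle cells from C57B6 mice aged 12 weeks. The knockout (KO) group held 3 libraries of genotype miR-21fl/fl with mTmG and Myh11ERT2, and the wild-type (WT) group held 3 libraries with wild-type miR-21, mTmG and Myh11ERT2. mTmG is a fluorescent Cre reporter and Myh11ERT2 is a tamoxifen-inducible Cre under control of the smooth muscle myosin heavy chain promoter. Deletion by this driver would be limited to cells that use that promoter. Both groups carried the reporter and the driver. The labels do not say whether the inducer was given or whether each library came from its own animal, so the p-values measure the spread between these libraries, which may be partly technical.

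MicroRNA genes are transcribed as long primary transcripts with a hairpin. In the nucleus Drosha, an RNase III enzyme, and Dgcr8, its RNA-binding partner, form the Microprocessor and cut the hairpin free. Xpo5 carries it to the cytoplasm with the GTPase Ran, and Dicer1, with its partner protein Tarbp2, removes the loop. One strand is then held by an Argonaute protein, and Tnrc6a, a GW182 protein, links Argonaute to the deadenylases that shorten the bound messenger. In mice, loss of Dicer1 from smooth muscle is known to impair contractile differentiation of the vessel wall.

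The microRNA targeted for deletion passes through each of these steps. Its sequences are shown because they are the substrate and product of the enzymes measured. Per RefSeq on GRCm38.p6, the Mir21a hairpin lies on the minus strand of chromosome 11 from 86584067 to 86584158. It has 92 bases, of which the 22 bases of each mature arm are in capitals below, with a loop of 16 bases between the arms. In the mature arms the capitals mark the seed (bases 2 to 8), the part that pairs with targets.
Mir21a hairpin: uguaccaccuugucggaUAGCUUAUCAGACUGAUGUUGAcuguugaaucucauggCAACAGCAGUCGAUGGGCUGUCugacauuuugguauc
miR-21a-5p: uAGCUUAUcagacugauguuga
miR-21a-3p: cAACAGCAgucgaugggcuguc
Mir21a itself was not analysed here, and libraries of this kind do not measure mature microRNAs. The genotype labels were therefore not checked against the targeted gene.

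Among the 10 genes, 4 held a match to the miR-21a-5p seed in their longest annotated 3′ UTR. The motifs searched on the transcript strand were ATAAGCT (pairing with the seed) and TAAGCTA (bases 2 to 7 of the microRNA, followed by an A), which overlap in the 8-base site ATAAGCTA. Ago2 held ATAAGCT, Ago1, Ago4 and Tnrc6a each held TAAGCTA, and none of the 10 held the 8-base site. The sites are shown in 30 bases of GENCODE vM1 transcript sequence (genome NCBIM37), with the match in capitals.
Ago2: ttgccaaacctATAAGCTgctcactgagag
Ago1: ccagttgggtttTAAGCTAgaatgaaaagc
Ago4: cgaggtactttcTAAGCTAttaaggaaggg
Tnrc6a: acttgccaggtgTAAGCTAatgttggacac
Of 11009 tested protein-coding genes with a 3′ UTR of at least 20 bases, 1323 (12.0%) held either motif, and of the 1649 with at least 3000 bases, 32.6% did. The 3′ UTRs searched for the 10 genes had a median of 3010 bases and ran from 28 bases for Xpo5 to 12742 bases for Ago3, whose longer sequence held no match. A match of letters is a description and shows neither binding nor regulation.

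The libraries were counted to 17123748 to 28610649 reads each. All 6 smooth muscle markers were high, with a summed level (TMM-scaled CPM, counts relative to library size) of 43236 to 44348 CPM in KO and 41803 to 48052 CPM in WT. The 5 endothelial markers summed to 35.3 to 47.1 CPM in KO and 36.6 to 38.3 CPM in WT. Most of that was Pecam1 (mean 33.8 CPM in KO and 33.2 CPM in WT). Cdh5 (0.311 and 0.283 CPM) and Kdr (0.366 and 0.131 CPM) were near 0. The 7 leukocyte markers summed to 1.54 to 7.01 and 3.63 to 7.98 CPM, and the 5 adventitial fibroblast markers to 71.2 to 158 and 119 to 122 CPM. The 4 globin genes that mark red cells summed to 815 to 1007 CPM in KO and 384 to 1172 CPM in WT. Markers of adipocytes, nerve and Schwann cells are not reported here. The part of these cells in the results below was not tested, and in bulk samples fewer cells of a type and less RNA per cell cannot be told apart. WT replicate 1 stood apart: the first principal component (40.6% of the variance) gave it a score of −58.1, while the remaining 5 libraries scored 1.53 to 27.3. It was the highest or the lowest of the 6 libraries for 64.5% of the 15185 genes tested and for 9 of the 10 genes described here, so values without it are given beside the results.

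No gene of the machinery passed the test between the genotypes. All 10 passed the filter on low counts, and 0 of 10 had an adjusted p under 0.05 in edgeR's quasi-likelihood test, where the background was 0% (0 of 15185 genes). Adjusted p-values in edgeR ran from 0.778 for Ago3 to 0.990 for Drosha. At an unadjusted p under 0.05 edgeR listed 0 of 10, against 6.29% of all genes tested. DESeq2 called 0 of 10, against 0.475% of the 14301 genes to which it gave an adjusted p. At an unadjusted p under 0.05 DESeq2 listed 0 of 10, against 962 genes over the whole table. With limma voom 0 of 10 were called, against 0% of all genes. At an unadjusted p under 0.05 limma voom listed 0 of 10, against 990 of 15185 genes. The groups did not overlap for 1 of the 10, against 14.5% of all genes. The fitted mean was higher in KO for 7 and lower for 3, with a median log2 fold change of 0.11, where 49.9% of all genes tested had a higher fitted mean and the median was −0.00078. These counts do not show that the genes are alike in both genotypes, and the 95% intervals below give the differences the data allow.

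**Figure D1:**
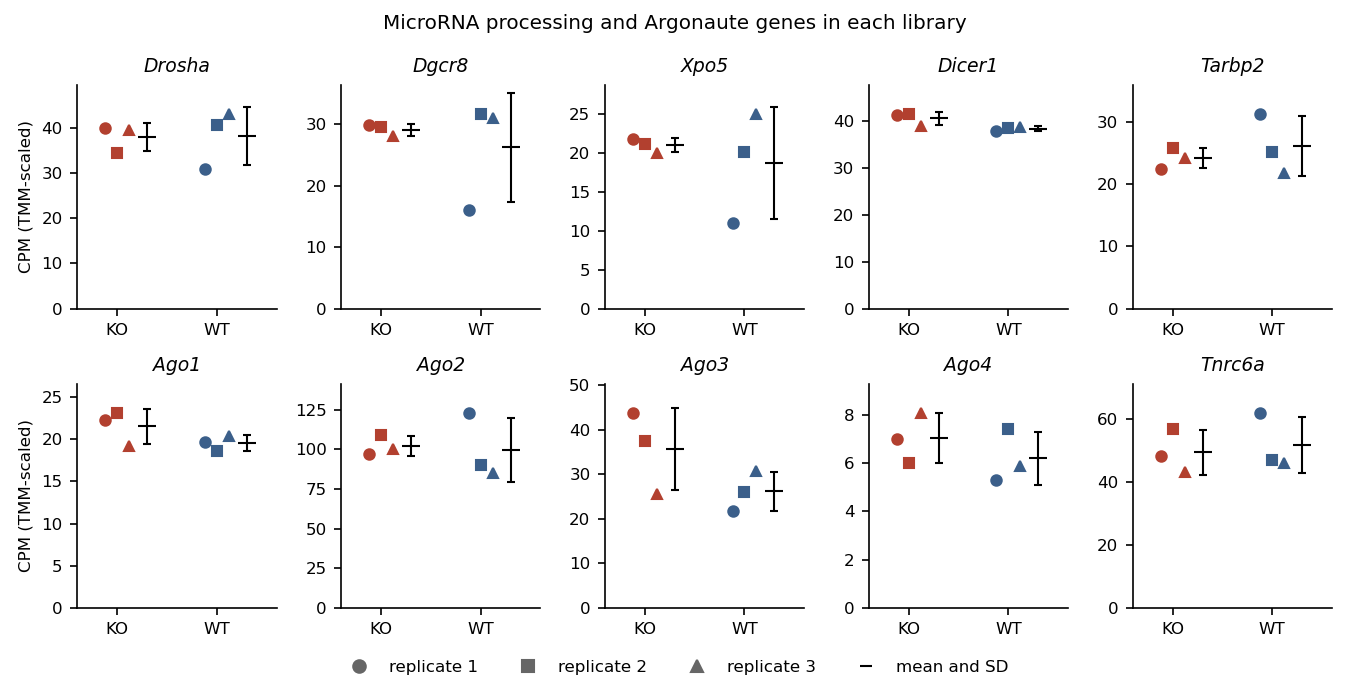
Level of each gene in CPM (TMM-scaled, vertical axis from 0) in the 3 KO libraries and the 3 WT libraries, one point a library, with the group mean and SD to the right of the points. The WT libraries spread more widely than the KO libraries for Dgcr8 and Xpo5, where WT replicate 1 lies at 15.99 and 10.9 CPM.

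Both Microprocessor genes were lowest in WT replicate 1, and neither passed the test between the genotypes. Drosha, on chromosome 15 from 12824815 to 12935291, stood at 40.02, 34.5 and 39.5 CPM in KO replicates 1, 2 and 3 and at 31.0, 40.6 and 43.1 CPM in WT replicates 1, 2 and 3. The groups overlapped. Its log2 fold change was −0.01 ± 0.15 SE, with a 95% interval of −0.35 to 0.33 (edgeR adjusted p = 0.990), and −0.14 ± 0.10 SE without WT replicate 1.

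Dgcr8, on chromosome 16 from 18253948 to 18289249, had 29.8, 29.5 and 28.0 CPM in KO and 15.99, 31.7 and 30.9 CPM in WT. WT replicate 1 held 0.511 times the mean of the other WT libraries, while the remaining 5 libraries lay between 28.0 and 31.7 CPM. With all libraries the log2 fold change was 0.15 ± 0.23 SE (95% interval −0.38 to 0.67, edgeR adjusted p = 0.879) and −0.11 ± 0.10 SE without WT replicate 1 (edgeR adjusted p = 0.851), so that library sets the sign. The annotated span of Dgcr8 overlaps that of Trmt2a, a tRNA methyltransferase gene on the other strand, by 825 bases. Reads of the shared stretch cannot be assigned with confidence, because the labels do not give the strand setting of the counting.

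The balance between both Microprocessor partners was then compared as a ratio within each library, which does not depend on scaling. The log2 ratio of Drosha to Dgcr8 counts was 0.42, 0.23 and 0.50 in KO and 0.95, 0.36 and 0.48 in WT. WT replicate 1 had the highest ratio, and the other 5 libraries ran from 0.23 to 0.50. The groups differed by −0.21 (2-sided exact permutation test, p = 0.5 before and after adjustment over 4 ratios; 3 against 3 cannot go below 0.1), and by −0.04 without WT replicate 1.

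Xpo5, the export receptor gene on chromosome 17 from 46202855 to 46242299, showed the same library pattern. Its level was 21.8, 21.1 and 19.97 CPM in KO and 10.9, 20.1 and 25.0 CPM in WT. The KO libraries lay inside the range of the WT libraries, which spread 2.28-fold from lowest to highest. The log2 fold change was 0.16 ± 0.25 SE (95% interval −0.42 to 0.73, edgeR adjusted p = 0.881) and −0.11 ± 0.13 SE without WT replicate 1. The log2 ratio of Xpo5 to Drosha counts was −0.88, −0.71 and −0.99 in KO and −1.50, −1.02 and −0.79 in WT, a difference of 0.24 (2-sided exact permutation test, p = 0.4, adjusted p = 0.5) that was 0.04 without WT replicate 1.

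Dicer1 varied least of the 10 genes, with a highest library 1.10 times its lowest. Located on chromosome 12 from 104687742 to 104751952, it had 41.3, 41.6 and 39.0 CPM in KO and 37.9, 38.6 and 38.8 CPM in WT. All 3 KO libraries lay above all 3 WT libraries, by as little as 0.19 CPM on the closest pair. It is the gene without overlap counted above, and its exact permutation p of 0.1 is the smallest that 3 against 3 can give. The fitted log2 fold change was 0.08 ± 0.11 SE (edgeR adjusted p = 0.859), with a 95% interval of −0.16 to 0.32, that is from 0.894 to 1.25 times the WT level. Without WT replicate 1 it was 0.07 ± 0.09 SE.

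Tarbp2, which encodes the double-stranded RNA-binding partner of Dicer1, lies on chromosome 15 from 102518192 to 102523676. It had 22.5, 25.8 and 24.3 CPM in KO and 31.3, 25.2 and 21.8 CPM in WT. WT replicate 1 was the highest library here, where it had been the lowest for Drosha, Dgcr8, Xpo5 and Dicer1. The log2 fold change was −0.11 ± 0.15 SE (95% interval −0.46 to 0.24, edgeR adjusted p = 0.866) and 0.04 ± 0.12 SE without that library. The log2 ratio of Tarbp2 to Dicer1 counts was −0.88, −0.69 and −0.68 in KO and −0.28, −0.62 and −0.83 in WT (difference −0.18, 2-sided exact permutation test, p = 0.4, adjusted p = 0.5), and the difference was −0.03 without WT replicate 1.

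**Figure D2:**
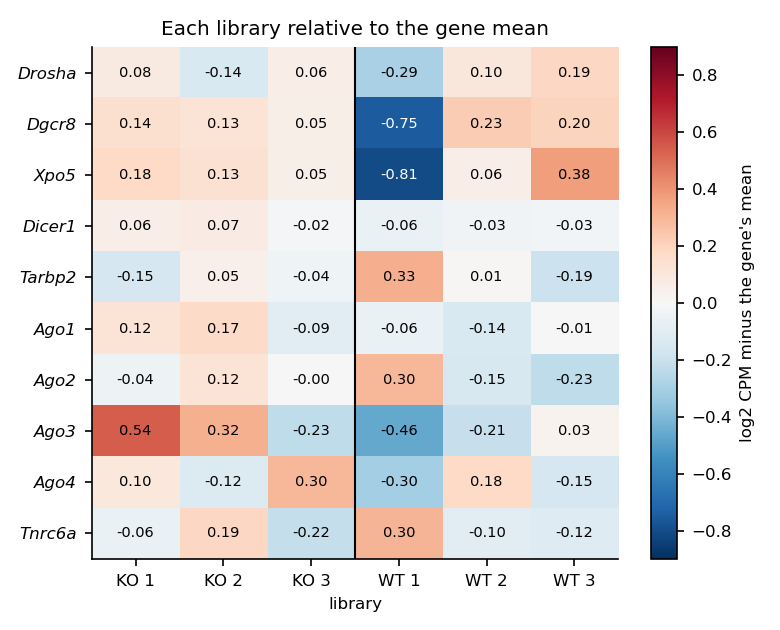
Log2 CPM of each gene (rows) in each library (columns) after subtraction of the gene's mean over the 6 libraries, with KO left of the line and WT right of it; red is above the mean and blue below. WT replicate 1 lies 0.75 and 0.81 below the mean for Dgcr8 and Xpo5 and 0.30 to 0.33 above it for Tarbp2, Ago2 and Tnrc6a.

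The Argonaute genes fall in 2 places. Ago3, Ago1 and Ago4 lie side by side on the minus strand of chromosome 4 within 202 kb, from 126331704 to 126533472, with 5455 bases between Ago3 and Ago1 and 20957 bases between Ago1 and Ago4. The table lists 2 other genes in that span, neither of which overlaps an Argonaute gene. Ago2, the Argonaute known in mammals for cutting perfectly paired targets, lies apart on chromosome 15 from 73095844 to 73184840. Ago2 overlaps the opposite-strand gene Chrac1, a chromatin accessibility factor gene, by 1711 bases, so part of its count is uncertain. Several counts of Ago1, Ago2 and Ago3 were fractional in the deposited table, as estimates are when reads match more than 1 gene.

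Ago2 stood at 97.2, 109 and 100.02 CPM in KO and at 123, 90.5 and 85.4 CPM in WT. WT replicate 1 was above every other library, and the other WT libraries were below every KO library. The log2 fold change was 0.04 ± 0.15 SE (95% interval −0.31 to 0.38, edgeR adjusted p = 0.961). Without WT replicate 1 it was 0.22 ± 0.09 SE, at an unadjusted p of 0.0399 and an adjusted p of 0.654 in edgeR. Ago2 was the 1 gene of the 10 listed at that unadjusted threshold without this library, where 7.44% of all genes were listed and 0.0577% passed after adjustment.

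Ago3 had the largest fold change of the 10. Its level was 43.7, 37.5 and 25.6 CPM in KO and 21.8, 26.0 and 30.7 CPM in WT. KO replicates 1 and 2 were above all WT libraries, but KO replicate 3 was below WT replicates 2 and 3. That gave a log2 fold change of 0.44 ± 0.21 SE (95% interval −0.03 to 0.91; edgeR unadjusted p = 0.0641, adjusted p = 0.778). The value depended on single libraries, at 0.63 without KO replicate 3 (edgeR adjusted p = 0.910), 0.57 without WT replicate 3 (0.576), 0.27 without KO replicate 1 (0.996) and 0.32 without WT replicate 1 (0.798). Scaled by library totals alone, the unadjusted p was 0.0496, and the adjusted p was 0.736.

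Ago1, next to Ago3 on chromosome 4 (126435012 to 126468583), did not share its spread. It had 22.3, 23.1 and 19.2 CPM in KO and 19.7, 18.6 and 20.4 CPM in WT, with a log2 fold change of 0.14 ± 0.13 SE (95% interval −0.15 to 0.43, edgeR adjusted p = 0.806). It was the 1 gene of the 10 for which WT replicate 1 was neither highest nor lowest, and the value without that library was also 0.14.

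Ago4 (126489541 to 126533472) was the least counted, with 123, 134 and 227 counts in KO and 89, 146 and 168 counts in WT. That is 7.001, 6.02 and 8.08 CPM in KO and 5.29, 7.42 and 5.88 CPM in WT, and the groups overlapped. The difference on the log2 scale was 0.18 ± 0.20 SE (95% interval −0.27 to 0.64, edgeR adjusted p = 0.828). That difference was 0.0896 without WT replicate 1, 0.0692 without KO replicate 3 and 0.336 without WT replicate 2.

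The summed level of the 4 Argonaute genes was 170, 176 and 152.9 CPM in KO and 170, 142 and 142 CPM in WT. Within that sum Ago2 took the most counts in every library, at 57.1%, 62.1% and 65.4% in KO and 72.5%, 63.5% and 60.0% in WT. The 95% Wilson interval of the Ago2 share, which covers counting error only, was 55.3% to 58.9% in KO replicate 1 and 70.8% to 74.1% in WT replicate 1. Some intervals overlapped between the genotypes, such as 60.5% to 63.6% in KO replicate 2 and 61.7% to 65.3% in WT replicate 2. Others did not, such as those of KO replicate 1 and WT replicate 2 or of KO replicate 3 and WT replicate 3. The interval of WT replicate 1 lay above that of every KO library. Within each genotype no intervals overlapped, so libraries of the same genotype also differed by more than counting error. The share of Ago2 differed by −3.79 percentage points between the genotypes and that of Ago3 by 3.72 (2-sided exact permutation tests, p = 0.5 each, adjusted p = 1.0 over 4 shares). Ago3 took 25.7%, 21.4% and 16.7% in KO and 12.8%, 18.2% and 21.5% in WT. Ago1 averaged 12.9 ± 0.329% in KO and 12.997 ± 1.37% in WT, and Ago4 averaged 4.27 ± 0.939% and 4.15 ± 1.05% (SD of 3 libraries). Without WT replicate 1 the difference for Ago2 was −0.22 points and for Ago3 1.37 points.

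**Figure D3:**
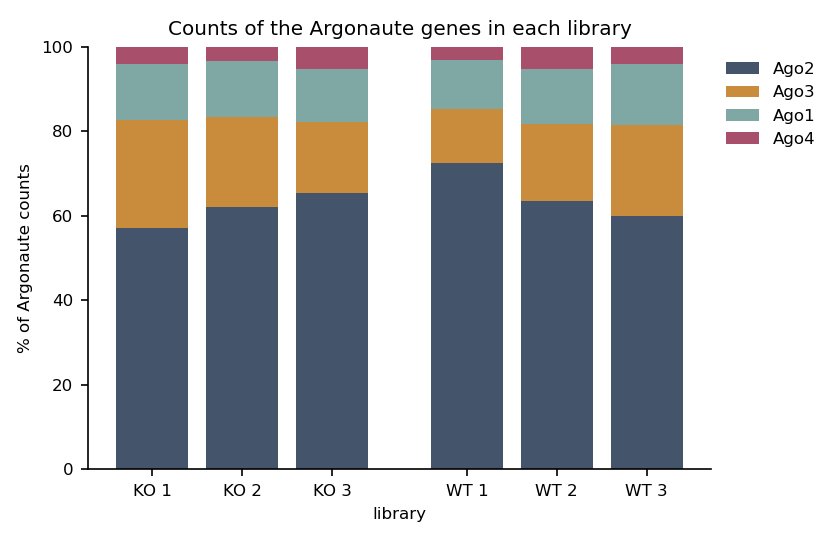
Percent of the counts of the 4 Argonaute genes taken by each, in the 3 KO libraries and the 3 WT libraries. Ago2 holds between 57.1% and 72.5%, and the lowest and highest values are KO replicate 1 and WT replicate 1.

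Tnrc6a, on chromosome 7 from 123123885 to 123195296, had 48.2, 57.1 and 43.2 CPM in KO and 62.1, 47.0 and 46.2 CPM in WT. The highest library was WT replicate 1 and the lowest KO replicate 3, and the groups overlapped. Its log2 fold change was −0.06 ± 0.16 SE (95% interval −0.42 to 0.30, edgeR adjusted p = 0.929) and 0.09 ± 0.12 SE without WT replicate 1. The log2 ratio of Tnrc6a to Ago2 counts was −1.01, −0.93 and −1.21 in KO and −0.99, −0.95 and −0.89 in WT. The difference in that ratio was −0.11 (2-sided exact permutation test, p = 0.3, adjusted p = 0.5), and −0.14 without WT replicate 1.

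**Figure D4:**
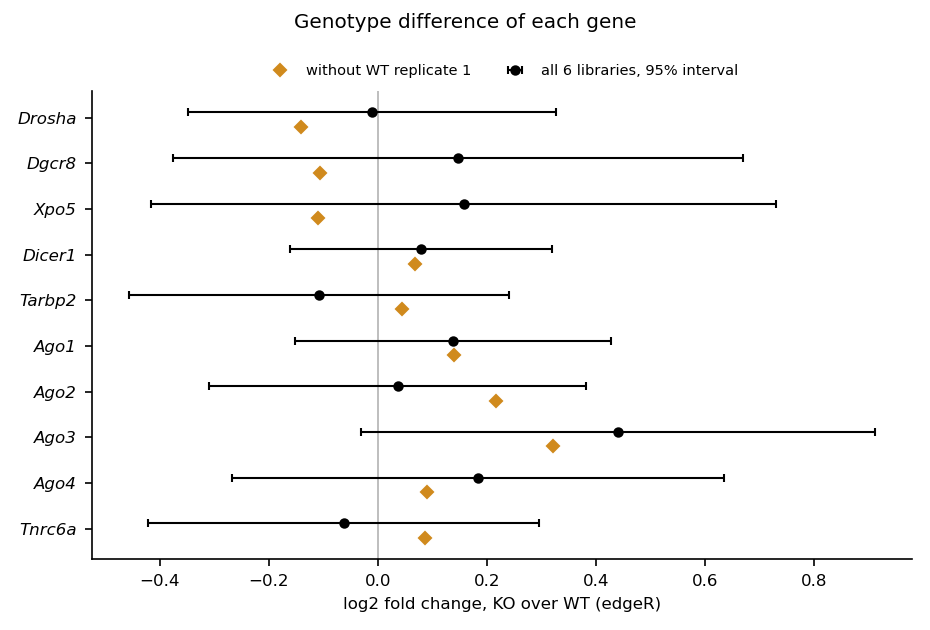
Log2 fold change of each gene, KO over WT, with its 95% interval over all 6 libraries (black) and the value without WT replicate 1 (orange). All 10 intervals include 0, and Ago3 lies farthest from it at 0.44 (−0.03 to 0.91).

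Levels were compared between genes as CPM per kilobase of annotated exon. Ago2 was the highest, at 12.7 ± 0.765 in KO and 12.4 ± 2.54 in WT (SD of 3 libraries), and its lowest library exceeded the highest library of Drosha. Drosha (6.41 ± 0.517 in KO and 6.44 ± 1.08 in WT), Tnrc6a (6.004 ± 0.854 and 6.28 ± 1.08), Tarbp2 (5.32 ± 0.362 and 5.74 ± 1.06) and Xpo5 (5.65 ± 0.249 and 5.03 ± 1.92) came next, followed by Dicer1 (4.04 ± 0.141 and 3.82 ± 0.0470) and Dgcr8 (3.99 ± 0.132 and 3.597 ± 1.22). The ranges over the libraries overlapped from each gene to the next from Drosha through Ago3, so that order is not firm. Ago1 (2.61 ± 0.249 and 2.37 ± 0.109) was above Ago3 (2.15 ± 0.556 and 1.58 ± 0.269) in 6 of 6 libraries. Ago4 was the lowest at 0.929 ± 0.136 in KO and 0.819 ± 0.146 in WT, below every library of Ago3. Lengths were taken from GENCODE vM1, which annotates 16571 exon bases for Ago3 and 3709 for Xpo5, and transcripts shorter or longer than that would shift these levels.

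**Figure D5:**
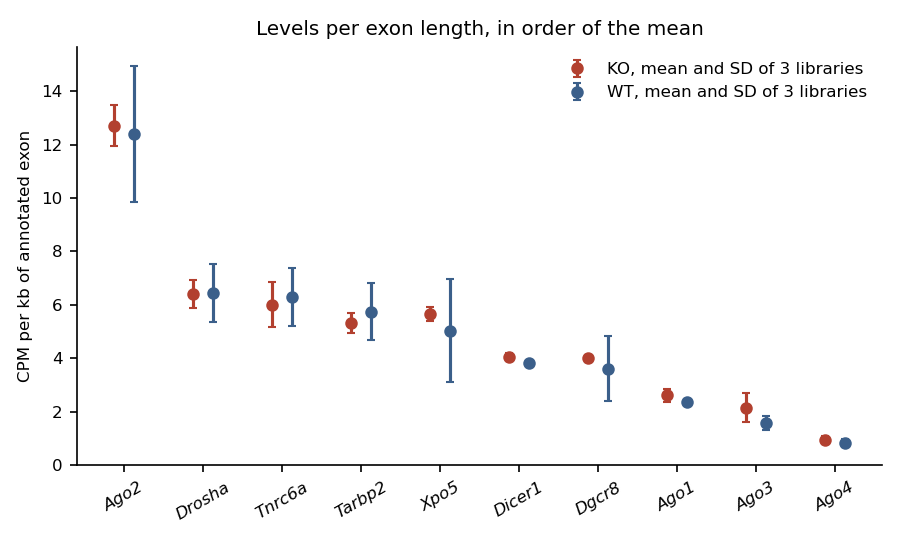
CPM per kilobase of annotated exon for the 10 genes in order of their mean over the 6 libraries, as mean and SD of the 3 KO libraries (left of each pair) and the 3 WT libraries. Ago2 leads at 12.7 in KO and 12.4 in WT, and Ago4 is lowest at 0.929 and 0.819.

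Other genes of the pathway were read from 4 lists. Of 14 nuclear cofactors, all tested, 0 passed in either direction in edgeR or DESeq2, and 0 reached an unadjusted p under 0.05 in edgeR (median log2 fold change −0.09). Those with the smallest p were Hnrnpa1, an RNA-binding protein gene (20.4 ± 1.44 CPM in KO and 26.9 ± 6.44 CPM in WT, log2 fold change −0.40), Srrt, which links the cap-binding complex to the Microprocessor (48.8 ± 0.347 and 56.5 ± 3.35 CPM, −0.21), and Adar, an RNA editing enzyme gene (28.8 ± 4.17 and 23.5 ± 6.55 CPM, 0.29). Hnrnpa1 was at −0.22, Srrt at −0.16 and Adar at 0.11 without WT replicate 1.

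Of 28 silencing effectors, 0 passed in edgeR or DESeq2, and the fitted mean was above WT for 20 and below it for 8 (median 0.09, and 0.02 without WT replicate 1). Ajuba, a LIM protein gene of the processing body, had the smallest p (15.5 ± 3.03 CPM in KO and 21.2 ± 3.23 CPM in WT, log2 fold change −0.44) and was the 1 of 28 at an unadjusted p under 0.05 in edgeR, against 6.29% of all genes tested. Without WT replicate 1 Ajuba was at −0.33 (edgeR unadjusted p = 0.0755), and without KO replicate 1 at −0.31 (edgeR unadjusted p = 0.133). Pan3 (30.03 ± 5.37 and 24.2 ± 1.74 CPM, 0.31) and the deadenylase gene Cnot6l (22.7 ± 1.86 and 18.9 ± 1.96 CPM, 0.26) followed. With WT replicate 1 left out, 3 of the 28 reached that unadjusted threshold, all higher in KO, against 7.44% of all genes. They were Tnrc6b at 0.33, Cnot6l at 0.35 and Pan3 at 0.37 (edgeR unadjusted p = 0.00915, 0.0142 and 0.0332). None of them passed after adjustment (edgeR adjusted p = 0.450, 0.512 and 0.626 in that order). The sister genes of Tnrc6a, named here after their values were seen, had log2 fold changes of 0.15 ± 0.16 SE (Tnrc6b) and 0.0046 ± 0.16 SE (Tnrc6c). These were 0.33 ± 0.10 SE and 0.19 ± 0.10 SE without WT replicate 1.

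Of 18 Dicer partners, precursor modifiers and loading factors, 16 were tested, and Lin28a and Lin28b were not analysed here. In edgeR 0 passed after adjustment, with 8 higher and 8 lower fitted means (median −0.07), and at an unadjusted p under 0.05 it listed 1 higher and 5 lower, against 6.29% of all genes in either direction. The 5 were the chaperone genes of the list, whose products help to load small RNA duplexes into Argonaute. Stip1, a co-chaperone gene, had 96.8, 100.001 and 96.9 CPM in KO and 163, 126 and 209 CPM in WT, so the groups did not overlap (log2 fold change −0.76 ± 0.17 SE, edgeR adjusted p = 0.489, DESeq2 adjusted p = 0.0224). The groups also did not overlap for the other chaperone genes and for some further genes of this list, against 14.5% of all genes tested. Hsp90ab1 had 603, 621 and 618 CPM in KO and 1037, 719 and 1106 CPM in WT (−0.64 ± 0.17 SE, edgeR adjusted p = 0.561, DESeq2 adjusted p = 0.0592). Hspa8 was at −0.91 ± 0.18 SE (edgeR adjusted p = 0.413), and with Stip1 it made up the 2 of 16 called by DESeq2, both lower in KO. DESeq2 called 0.475% of the 14301 genes to which it gave an adjusted p, 17 higher and 51 lower. Without WT replicate 1 the log2 fold changes were −0.77 for Stip1, −0.57 for Hsp90ab1 and −0.87 for Hspa8.

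Hsp90aa1 (−0.73), Ptges3 (−0.37) and, in the other direction, the helicase gene Dhx9 (0.31) are named here after their values were seen, with edgeR adjusted p-values of 0.625, 0.668 and 0.778. They were at −0.54, −0.33 and 0.23 without WT replicate 1. Lower chaperone levels in KO were already known from an earlier analysis of these libraries, so the 5 are no independent evidence. Piwil2 was the germline Piwi gene analysed, at 1.52 ± 0.157 CPM in KO and 1.32 ± 0.593 CPM in WT (log2 fold change 0.18, and −0.12 without WT replicate 1, edgeR adjusted p = 0.917).

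The mean of the 10 genes, each centred on its own mean log2 CPM, was 0.10, 0.09 and −0.01 in KO and −0.18, −0.0033 and 0.0067 in WT. Among 13551 other genes with a mean of at least 1 CPM, the closest to that profile over the 6 libraries were Arfgef1, Aste1, Slc25a32, Lama4 and Smcr8, with Pearson r from 0.993 to 0.998 and Spearman rho from 0.886 to 1.0. With the 2 farthest libraries left out their r was 0.957 to 0.994. Of the 13551 genes, 271 had an r above 0.95, and all profiles share the same libraries and depth, so this is a description only.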

How the data were processed

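Total RNA of the aortic cells was made into libraries with an Illumina TruSeq RNA kit, per the labels' protocols. STAR 2.6, DESeq2 and the build mm10 are named per the submitters' processing notes. No counting tool, annotation release or strand setting is given in those sources. The authors deposited expected counts per gene, not normalised (65.4% of values lie within 0.01 of a whole number). Deposited stop coordinates lay 1 base past the RefSeq end for 1503 of 4676 genes with the same start, and at it for 91, so 1 was subtracted; positions are 1-based on mm10.

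Expected counts were rounded. Genes were kept with filterByExpr (15185 of 20199) and tested KO against WT with edgeR 4.0.16 (R 4.3.3; TMM, glmQLFit and glmQLFTest, robust=TRUE, 2-sided) without a block, with p-values adjusted by Benjamini-Hochberg over the 15185 genes and called under 0.05. SE is the size of the log2 fold change over the root of F, and 95% intervals use the t distribution with the total degrees of freedom. CPM are TMM-scaled. Log2 CPM used a prior count of 2. Shares and ratios of counts were tested with exact permutation tests. Alternatives were RLE factors, library totals, no filter, DESeq2 1.42.0, limma voom 3.58.1, a replicate block and leaving out each library. DESeq2 without WT replicate 1 was added after seeing the data. The procedures were tested on simulated data.

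The members, the lists and the tests were chosen with earlier results of these data known. All 10 members were named, with the 3 genes of smallest p in each pathway list and the 5 genes whose profile was closest to the members' mean. Exon lengths and 3′ UTRs came from GENCODE vM1 (NCBIM37), matched by current or older symbol for all 10 members and used without coordinates; of 12416 tested protein-coding genes 11009 could be searched (20 bases or more). microRNA sequences came from RefSeq. Gene symbols that read as dates (18) were not named.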

Additional observations from a re-analysis of the deposited data

How the results depend on the processing

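In every setting tried, 0 of the 10 genes passed after adjustment, and the smallest adjusted p over all of them was 0.576 (edgeR, Ago3 without WT replicate 3). The median log2 fold change of the 10 stayed between 0.07 and 0.15. Over all genes, edgeR called 0 in the main setting, 0 with other scalings, without the filter or with the block, and 0 to 9 with 1 library left out (9 without WT replicate 1 and 1 without WT replicate 2), while DESeq2 called 68, and 79 without WT replicate 1. Of the pathway genes DESeq2 called 2 with all libraries and 2 without WT replicate 1, against 0 in edgeR. The cause of these differences between tools was not tested.

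Signs of small differences changed. Drosha was at 0.0297 with library totals and 0.00018 with the replicate block, against −0.01. In DESeq2 without WT replicate 1, Dgcr8 was at −0.10, Xpo5 at −0.11, Tarbp2 at 0.0450, Tnrc6a at 0.0887 and Piwil2 at −0.12. With each library left out in turn, edgeR's log2 fold change ran from −0.14 to 0.0832 for Drosha, −0.11 to 0.30 for Dgcr8, −0.11 to 0.43 for Xpo5, −0.23 to 0.0432 for Tarbp2, −0.0672 to 0.22 for Ago2, −0.18 to 0.0865 for Tnrc6a and −0.12 to 0.43 for Piwil2. The KO minus WT difference in the share of Argonaute counts moved likewise. It ran from −0.75 to 0.62 percentage points for Ago1 and from −0.40 to 0.65 for Ago4. The log2 fold changes of Dicer1, Ago1, Ago3 and Ago4, unlike those shares, stayed positive in every setting.

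The titles give both genotypes the same replicate numbers, but the numbers share no stated source. Deviations of same-numbered libraries from their group means correlated at −0.27, −0.18 and −0.08. Those of differently numbered libraries correlated at −0.11 to 0.21. Because the deviations are taken from group means, these correlations depend on one another and do not settle whether the libraries were paired. With the replicate block edgeR called 0 genes, with 572 at an unadjusted p under 0.05 in place of 955. With groups of 3, the intervals of the 10 genes reach as far as 1.88-fold higher for Ago3 and 0.729-fold for Tarbp2; differences inside those bounds are not excluded.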

Other observations

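Primary transcripts that host microRNA hairpins are the substrates of the Microprocessor, and 4 such host genes were found by symbol after the values of the machinery had been seen. Mir22hg had 85.2, 103 and 109 CPM in KO and 124, 98.1 and 96.6 CPM in WT (log2 fold change −0.10 ± 0.15 SE, edgeR adjusted p = 0.870). Mir99ahg had 8.42, 8.67 and 6.05 CPM in KO and 7.55, 4.68 and 6.23 CPM in WT (0.32 ± 0.23 SE, edgeR adjusted p = 0.781). Mir17hg, the host of a cluster known for its part in cell proliferation, had 58, 74 and 71 counts in KO and 20, 42 and 94 counts in WT (0.44 ± 0.36 SE, edgeR adjusted p = 0.786). The groups overlapped for each of the 3. Without WT replicate 1 the log2 fold changes were 0.03 for Mir22hg, 0.48 for Mir99ahg and 0.15 for Mir17hg. Mir155hg had 1, 9 and 7 counts in KO and 3, 7 and 10 counts in WT and did not pass the filter on low counts.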
